A study of Glycine max with 12 samples.

Results

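Seed maturation proteins were followed in soybean leaves through every spot of a cDNA microarray that the platform's probe-to-gene table assigns to PM9, PM12, PM23, PM29, PM30, PM34 or PM41. This rule found 9 spots of 7 genes among the 253 spots that the table names and the 5760 on the array. PM34 has 3 spots and each of the other genes has 1, and a spot is called a clone below and is named by its gene and its GenBank identifier. All 7 genes were found by gene ID under the same symbol in the RefSeq table of the soybean assembly Glycine_max_v4.0, on 7 different chromosomes. A spotted cDNA can hybridize with the transcripts of near-identical relatives, so that a clone stands for its gene together with such relatives.

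The plants were soybean (Glycine max) of the cultivar Dare, 3 weeks old, whose aerial parts had been cut below the cotyledons and placed in solution, and all groups, the controls included, share this excision. Polyethylene glycol (PEG), which withdraws water from the tissue, was given at 10% (w/v) for 16 h against water. Tunicamycin (TUN), an inhibitor of N-linked glycosylation in the endoplasmic reticulum (ER), was used at 10 μg/ml over 24 h, with DMSO as its control. L-azetidine-2-carboxylic acid (AZC), a proline analog that makes proteins misfold, was given at 50 mM for 16 h against water. RNA of the first trifoliate leaves was compared, treated against control, on 2-colour arrays. Each of the 3 treatments has 2 biological replicates, and each replicate was hybridized with the dyes in either orientation, which makes 12 hybridizations. The sources used here do not say whether AZC and PEG shared their water-treated plants. The dose and the time differ between TUN and the others, and the cDNAs on the array come from libraries of developing seeds, not of leaves.

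Late embryogenesis abundant (LEA) proteins accumulate in seeds as they mature and dry, and many are made again in leaves and roots when cells lose water. They are mostly hydrophilic proteins with little fixed structure that are thought to protect membranes and other proteins during desiccation. Dehydrins are a family of LEA proteins, many of whose genes are known targets of the hormone abscisic acid. PM genes were named as seed maturation proteins of soybean and do not all belong to the LEA family.

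The table names 2 spots of leaf markers, a chlorophyll a/b-binding protein (LOC547819) and the photosystem I subunit PSAD. Both were above background in the control channel of all 12 hybridizations, as were 78.2% of all spots, so that detection does not tell leaf from other tissue here. LOC547819 fell, with log2 ratios of −5.24 under PEG, −3.58 under TUN and −5.35 under AZC (adjusted p = 3.7e-04, 0.0051 and 2.7e-04 from limma), PSAD was at 0.38 under PEG and 0.09 under TUN and was not called, and the part of these changes in the results below was not tested. The table names no spot of the nodule and root markers. PEG replicate 2 stood apart from the other hybridizations. Where its treated RNA was in Cy5, 82.7% of its control spots and 44.7% of its treated spots were above background. The other 11 hybridizations had 96.9 to 100% in either channel. This hybridization with the treated RNA in Cy5 is also the only one quantified by the Adaptive Circle method. For PEG replicate 1, the 2 scanner files were exchanged between the dye orientations. As listed, the 2 files correlated with the authors' own ratios of the same hybridization at no more than 0.499 in size, and with a negative sign, and after the exchange at 0.977 or more, where the other 10 files reached 0.953 or more. The exchange was decided on from these correlations, and every PEG value below rests on it.

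The control channel holds the RNA of leaves from cut shoots given water or, for TUN, DMSO. It gave signal on most hybridizations for every seed maturation clone, as it did for most spots of the array. It lay above its local background by more than 2 of the background's standard deviations in 101 of 108 measurements, 9 clones on 12 hybridizations each, and in 97 by more than 3. The 101 are 93.5% of the members' measurements, where 98.1% of those of all spots passed, so that passing this limit sets no member apart. All 7 that did not were in PEG replicate 2, where they concerned 6 of the clones in 7 of 18 measurements. The remaining clones, PM23, PM29 and PM41, were above background in the control channel of all 12 hybridizations. No pixel of these spots was saturated.

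The foreground of the control channel, divided by the local background of the same spot, had its lowest, median and highest value over the 12 hybridizations at 2.35, 5.47 and 14.9 for PM30 (AW397921). The same ratio was 2.15, 4.95 and 9.78 for PM9 (AW568142) and 1.93, 4.86 and 9.11 for PM12 (AI748083). For the 3 clones of PM34 it was 1.67, 4.03 and 8.92 (AI735868), 1.80, 3.32 and 6.86 (AI940821), and 2.32, 4.07 and 13.4 (AW568206). The median of this ratio over all spots was 3.47 to 13.4 in the 12 hybridizations. The ratio depends on the spot and on the hybridization and gives no order of the genes. It was 4.20, 7.21 and 12.3 for PM41 (AW397256), 6.91, 20.6 and 38.8 for PM29 (AI940815) and 2.59, 3.17 and 10.3 for PM23 (AI735828).

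PEG against water asks which of these genes respond in leaves to osmotic stress. PM30, which encodes a protein of the LEA family, had the highest ratio of treated over control among the 4345 clones tested under PEG. Part of its clone is printed because the gene carries the largest change and because the study followed it by RT-PCR in leaves under the same agents. The stretch runs from the first ATG of the clone over 222 bases, 5′ to 3′, and the capitals mark the sites of the 2 RT-PCR primers, which enclose an amplicon of 124 bases.
PM30 (AW397921): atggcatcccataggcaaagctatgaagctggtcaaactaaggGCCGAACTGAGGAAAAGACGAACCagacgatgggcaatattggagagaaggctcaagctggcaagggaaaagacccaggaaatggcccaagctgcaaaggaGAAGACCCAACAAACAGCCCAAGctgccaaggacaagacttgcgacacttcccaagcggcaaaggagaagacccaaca
The frame of this ATG held 0 stop codons over the 399 bases of the clone that were at hand. The longest exact run that occurs at 2 places in it, gcaaaggagaagacccaaca, has 20 bases and begins at bases 137 and 203 of the printed stretch, 66 bases or 22 codons apart, and 12 bases of the reverse primer's site lie within the first copy.

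On the 4 PEG hybridizations the log2 ratio of PEG over water for PM30 was 3.43 and 4.57 in replicate 1 and 5.66 and 5.51 in replicate 2, with the treated RNA in Cy5 and Cy3 respectively. Replicate 2 lay above replicate 1 in both orientations. The water channel of PM30 was at an intensity of 2840 and 846 in replicate 1, 14.9 and 9.95 times its local background, and at 1339 and 481 in replicate 2, 2.35 and 2.41 times its background. It was not above background in replicate 2, so that the control RNA was measured on 2 of 4 hybridizations. In the control channels of TUN and of AZC, PM30 was above background on all 4 hybridizations. The PEG channel had intensities of 5120, 27827, 6346 and 12391 in the same order, 26.6 to 125 times the local background. The largest ratios thus came from the replicate in which the control was near background. The estimate from limma was 4.79 (standard error 0.33, 95% confidence interval 4.05 to 5.53, n = 2 biological replicates, adjusted p = 3.2e-05), and it was 4.0 without PEG replicate 2. Under PEG, 199 of the 4345 clones, or 4.58%, were called higher, and in 136 of these (68.3%) replicate 2 was above replicate 1. In leaf RNA, more transcript per cell and more cells that express a gene cannot be told apart.

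PM34, which encodes a protein related to short-chain dehydrogenases, had the next highest estimate of all clones through its clone AI735868. The log2 ratios of this clone under PEG were 2.70 and 2.76 in replicate 1 and 3.09 and 4.46 in replicate 2, in the order of dyes given for PM30. Its estimate was 3.25 (95% confidence interval 2.71 to 3.80, adjusted p = 4.2e-05 from limma), and it was 2.73 without PEG replicate 2. The water channel was above background on 3 of 4 hybridizations. The highest ratio, 4.46, fell on the remaining one, where the water channel was at 1.67 times its background. The other clones of PM34 had a ratio on 3 of 4 PEG hybridizations each and were not tested, since a mark of the scanner software removed 1 orientation of replicate 2 and both orientations were required. AW568206 had log2 ratios of 1.36 and 1.72 in replicate 1 and 1.33 in replicate 2 with the treated RNA in Cy3. AI940821 had 0.52 and 1.26 in replicate 1 and −0.32 in replicate 2 with the treated RNA in Cy5, where neither channel was above background. The 3 clones that the table assigns to this gene thus had ranges of log2 ratios under PEG that did not overlap. The difference between them was not tested, and the files hold no sequence that would show whether they represent the same transcript.

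PM12, which encodes a dehydrin, ranked 20 from the highest of 4345 clones under PEG. Its log2 ratios were 1.59 and 1.86 in replicate 1 and 2.02 and 3.11 in replicate 2, all above every value of the same clone under TUN and AZC. The estimate was 2.14 (95% confidence interval 1.70 to 2.59, adjusted p = 1.2e-04 from limma), and the highest ratio fell on the hybridization where the water channel, at 1.93 times its background, was not above it.

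PM9, which the study annotates as an LEA protein of seed maturation, was not tested under PEG for the lack of 1 orientation in replicate 2. Its log2 ratios of PEG over water were 2.39 and 2.64 in replicate 1 and 4.31 in replicate 2 with the treated RNA in Cy3. On this last hybridization the water channel, at 2.15 times its background, passed the limit of 2 standard deviations but not of 3. All 3 ratios of PM9 under PEG lay above each of its ratios under TUN and AZC. When 1 orientation was allowed to stand for a replicate, the estimate was 3.41 (standard error 0.37, adjusted p = 6.5e-04 from limma), and when marked spots were kept it was 3.05 (standard error 0.29, adjusted p = 3.2e-04). AW568206 of PM34 also passed in these settings, at 1.43 (adjusted p = 0.0015) and 1.11 (adjusted p = 0.0209).

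Smaller rises were measured on 2 clones whose water channel was above background on all 4 PEG hybridizations. PM41 was 2.09-fold higher, with log2 ratios of 1.49 and 1.31 in replicate 1 and 0.80 and 0.64 in replicate 2. Its estimate of 1.06 had a standard error of 0.17, a 95% confidence interval of 0.67 to 1.45 and an adjusted p of 0.0032 from limma, and it ranked 94 of 4345. Unlike PM30, PM34 and PM12, it was higher in replicate 1 in both orientations. Without PEG replicate 1 the estimate was 0.72 and missed the threshold (adjusted p = 0.0527).

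PM29 was 1.37-fold higher, with log2 ratios of 0.18 and 0.66 in replicate 1 and 0.43 and 0.54 in replicate 2. Its estimate was 0.45 (standard error 0.08, 95% confidence interval 0.26 to 0.64, adjusted p = 0.0070 from limma). All 4 ratios were positive and none reached 1, and the biological replicates, at 0.42 and 0.49, lay close together. The call was lost without PEG replicate 2 (0.42, adjusted p = 0.104) and when only hybridizations with the treated RNA in Cy5 were used (0.30, adjusted p = 0.152), and PM29 did not reach the fold limit that the methods set for PEG.

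PM23 had ratios near 0. Its log2 ratios under PEG were −0.02 and 0.08 in replicate 1 and 0.02 in replicate 2, and it was not tested for the lack of 1 orientation. When 1 orientation was allowed, the estimate was 0.03 with a standard error of 0.23 (adjusted p = 0.963 from limma).

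Counted over the genes, 5 of the 9 clones could be tested under PEG, and limma called all 5 higher and 0 lower, with a median log2 ratio of 2.14 against 0.01 over all 4345 clones tested, of which 4.58% were called higher. Of all 9 clones, 7 were above 0 on every PEG hybridization that gave a ratio, AI940821 of PM34 and PM23 being the exceptions. Among the 5544 spots of the array with a ratio on at least 3 of 4 PEG hybridizations, 12.6% were above 0 on every one. With the files of PEG replicate 1 as listed, 0 of 5 member clones passed, and PM30 was at 0.79 (adjusted p = 0.999). In that setting 0 clones of the whole array passed under PEG. With the authors' own ratios, which do not depend on the order of these files, all 5 passed and PM30 was at 5.29 (adjusted p = 9.1e-05). The exchange was decided on from its correlation with those same ratios, so that they are no independent check of it. The authors' PM30 ratios were 3.18 and 4.20 in replicate 1. They were 9.24 and 4.56 in replicate 2, where the water channel of PM30 was not above background.

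**Figure D1:**
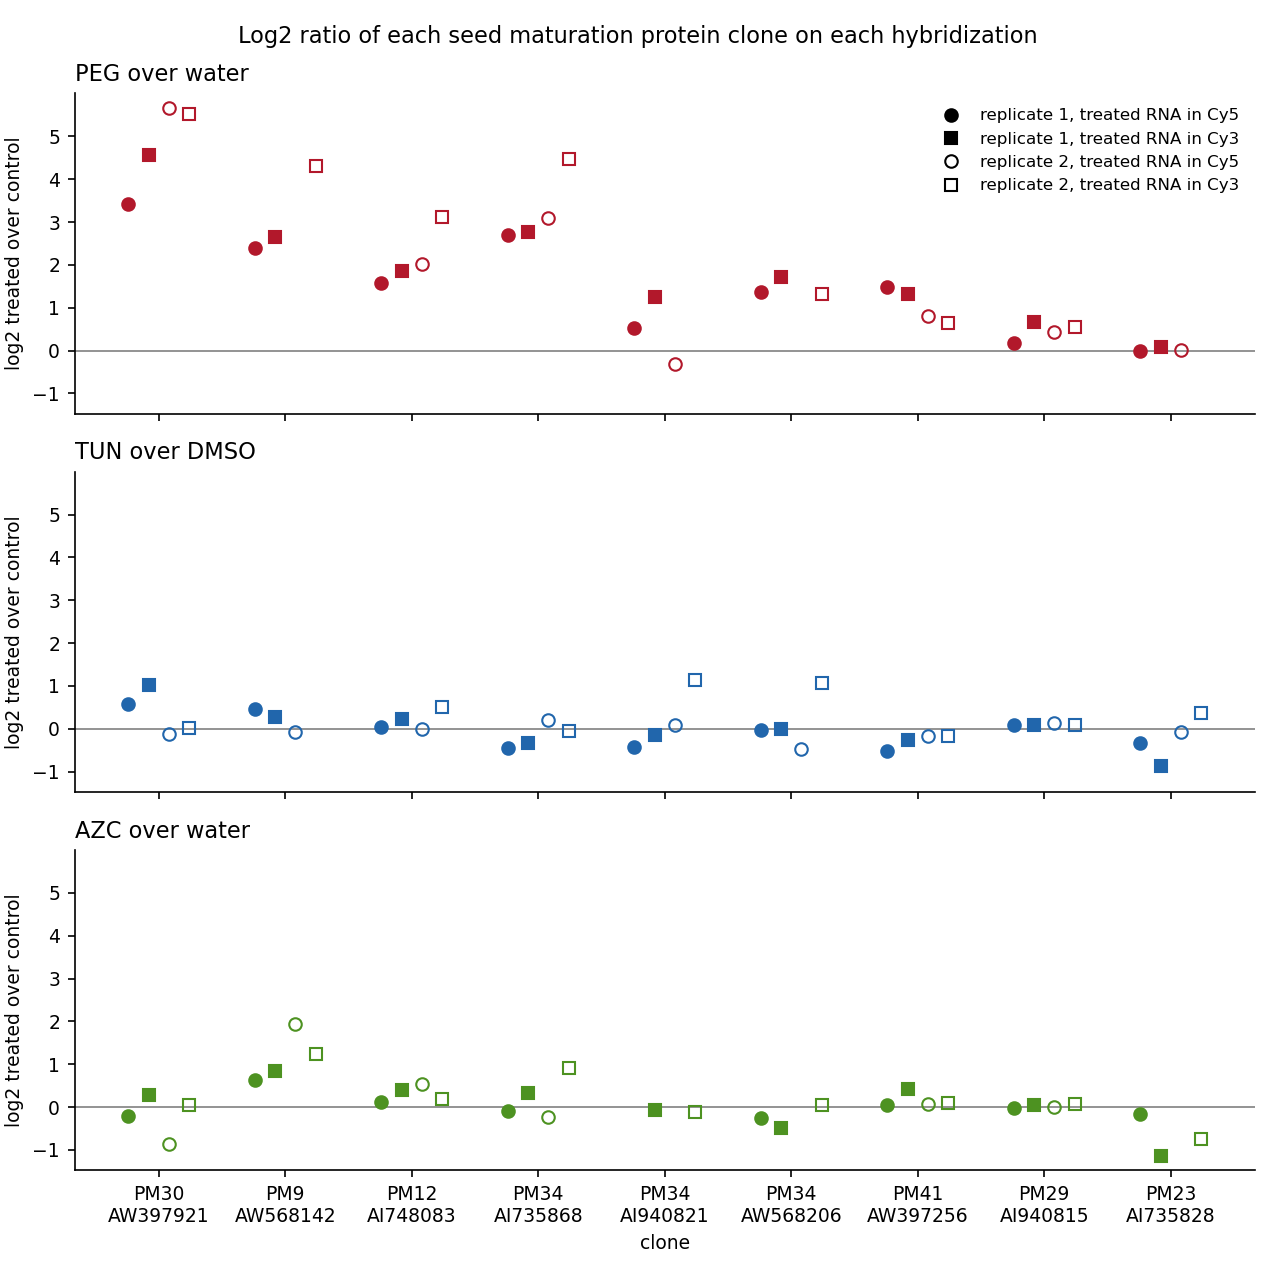
Log2 ratio of treated over control (vertical axis) of the 9 clones (horizontal axis) on each hybridization under PEG, TUN and AZC. Each symbol is 1 hybridization, filled for biological replicate 1 and open for replicate 2, round for treated RNA in Cy5 and square for Cy3, and ratios of marked spots are left out. Under PEG, PM30 lies between 3.43 and 5.66 and PM23 between −0.02 and 0.08, and under AZC only PM9 has all its values above 0.6.

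The signal behind the ratios was read from both channels. In PEG replicate 1, where the water channel of all 9 clones was above background in both orientations, the treated channel of PM30 reached 59.5 and 125 times its local background with the treated RNA in Cy5 and Cy3, against 14.9 and 9.95 in the water channel. The treated channel of PM34 (AI735868) reached 14.4 and 20.0 times its background, against 8.92 and 6.79 in water. For PM12 the same ratios were 10.7 and 11.0 under PEG against 9.11 and 6.14 in water. The dyes differ in brightness, which the normalization removes as an average over the array but not for each single clone. In PEG replicate 1, where the treated RNA was in Cy5, the median over all spots was 6.68 in the treated channel and 13.4 in the control, so that a clone such as PM41, at 11.1 in the treated and 12.3 in the control channel, had a positive ratio.

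**Figure D2:**
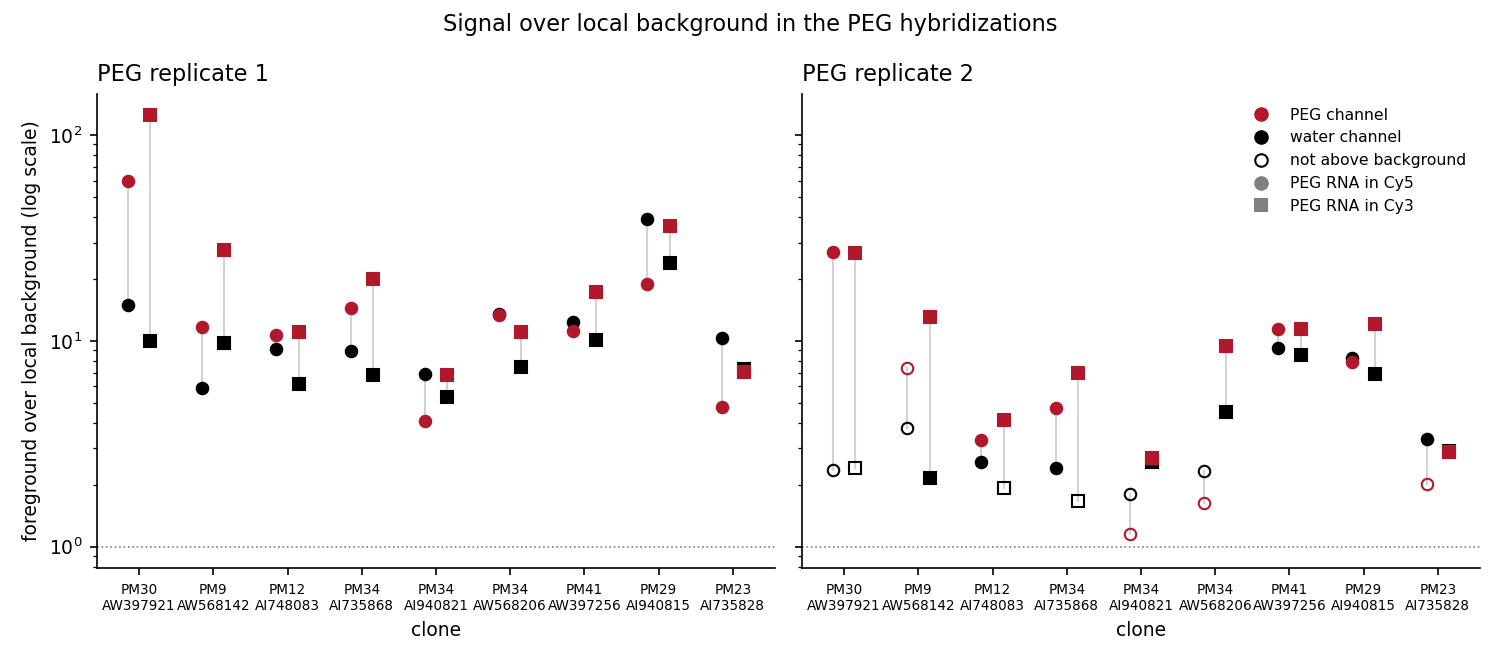
Foreground over local background (vertical axis, log scale) of the 9 clones (horizontal axis) in the PEG channel (red) and the water channel (black) of the 4 PEG hybridizations, before normalization of the dyes. Open symbols are not above background, round symbols have the PEG RNA in Cy5 and square ones in Cy3, and marked spots are drawn too. The water channel of PM30 is above background at 14.9 and 9.95 in replicate 1 and not at 2.35 and 2.41 in replicate 2.

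TUN against DMSO asks whether the genes respond to ER stress. Of the 8 member clones tested under TUN, limma called 0 in either direction. Among all 4905 clones tested, 4.51% were called higher and 2.75% lower, so that 0 of 8 does not set the members apart. None of the 8 was at an unadjusted p under 0.05, a limit for which the share of all clones is not given here. The median log2 ratio of the members was 0.12 against −0.01 over all clones tested. PM30 had 0.59 and 1.02 in replicate 1 and −0.13 and 0.01 in replicate 2, so that its replicates differed by more than the estimate of 0.37 (95% confidence interval −0.37 to 1.12, adjusted p = 0.673 from limma). All 4 values lay below its lowest value under PEG.

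PM12 was at 0.03 and 0.23 in replicate 1 and at 0.00 and 0.50 in replicate 2 under TUN. PM34 (AI735868) was at −0.44 and −0.33 in replicate 1 and at 0.21 and −0.04 in replicate 2. In replicate 2 with the treated RNA in Cy3, the other PM34 clones were at 1.14 (AI940821) and 1.07 (AW568206), against values between −0.48 and 0.10 on the other hybridizations, and neither was called. PM41 was below 0 on all 4 TUN hybridizations, from −0.51 to −0.17, with an estimate of −0.28 that missed the threshold (95% confidence interval −0.67 to 0.11, adjusted p = 0.495 from limma). PM29 was the least variable, at 0.09 to 0.13 on the 4 hybridizations (estimate 0.10, adjusted p = 0.665 from limma). PM23 ranged from −0.88 to 0.37 and PM9, with 3 ratios and no test, from −0.08 to 0.45.

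Under AZC, the other ER-stress treatment, PM9 was the only one of 6 tested member clones that passed. It was 2.24-fold higher, with log2 ratios of 0.63 and 0.83 in replicate 1 and 1.94 and 1.24 in replicate 2, all 4 above its highest value under TUN, 0.45. The estimate was 1.16 (standard error 0.21, 95% confidence interval 0.66 to 1.67, adjusted p = 0.0149 from limma), and the control channel was above background on all 4 hybridizations. Since PM9 lacked a value for 1 replicate of PEG and of TUN, its own spread in the fit came from the AZC replicates alone, and it could not be tested without either of them. The call was lost without the intensity trend of the variances (adjusted p = 0.0833) and when 1 orientation was allowed to stand for a replicate (adjusted p = 0.119). Of all 5023 clones tested under AZC, 3.98% were called higher.

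The other members were not called under AZC. PM30 had −0.21 and 0.28 in replicate 1 and −0.86 and 0.04 in replicate 2, and its estimate of −0.19 had a 95% confidence interval of −0.93 to 0.55 (adjusted p = 0.826 from limma). PM12 was above 0 on all 4 hybridizations, from 0.12 to 0.54, with an estimate of 0.31 (95% confidence interval −0.13 to 0.75, adjusted p = 0.453). PM34 (AI735868) had opposite signs in the dye orientations of both replicates, −0.10 and 0.33 in replicate 1 and −0.23 and 0.92 in replicate 2. PM41 lay between 0.06 and 0.42 and PM29 between −0.02 and 0.07. PM23, not tested under AZC, was below 0 on its 3 hybridizations, at −0.15, −1.14 and −0.74, and the remaining PM34 clones lay between −0.50 and 0.06.

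The treatments were then compared with each other within the same fit. For the difference PEG minus TUN, 4 of the 5 member clones tested were called higher, where 2.02% of 3816 clones were. The difference was 4.42 for PM30 (95% confidence interval 3.37 to 5.47, adjusted p = 8.7e-04 from limma), 3.41 for PM34 (AI735868, 2.63 to 4.18, adjusted p = 7.6e-04) and 1.95 for PM12 (1.32 to 2.58, adjusted p = 0.0036). PM41 followed with 1.34 (0.79 to 1.89, adjusted p = 0.0122), a call lost without PEG replicate 1 (1.0, adjusted p = 0.0555), without the Adaptive Circle hybridization (1.30, adjusted p = 0.0563) and with the treated RNA in Cy3 alone (1.19, adjusted p = 0.0573). PM29 was not called (0.35, 95% confidence interval 0.09 to 0.62, adjusted p = 0.147). Doses, durations and control solutions differ between PEG and TUN.

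For PEG minus AZC, which uses the same PEG values and has 16 h against water on both sides, 3 of 5 member clones were called higher, where 2.99% of 3976 clones were. The difference was 4.98 for PM30 (95% confidence interval 3.93 to 6.03, adjusted p = 2.9e-04 from limma), 3.02 for PM34 (AI735868, 2.25 to 3.80, adjusted p = 9.0e-04) and 1.83 for PM12 (1.20 to 2.46, adjusted p = 0.0042). The call of PM12 was lost without AZC replicate 1 (1.78, adjusted p = 0.0635). PM41 at 0.90 (0.35 to 1.45, adjusted p = 0.0711) and PM29 at 0.42 (0.16 to 0.69, adjusted p = 0.0812) missed the threshold. PM9 had no test of this difference, and its 3 ratios under PEG, from 2.39 to 4.31, lay above its 4 under AZC, from 0.63 to 1.94.

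For AZC minus TUN, 0 of 5 member clones were called in either direction, where 2.08% of 4372 clones were. A count of 0 of 5 thus does not set the members apart. None of the 5 was at an unadjusted p under 0.05, for which the share of all clones is not given here. The estimates ran from −0.56 for PM30 (95% confidence interval −1.61 to 0.49) to 0.44 for PM41 (−0.11 to 0.99). The interval for PM29, −0.34 to 0.20, was the narrowest and the interval for PM30 was the widest.

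**Figure D3:**
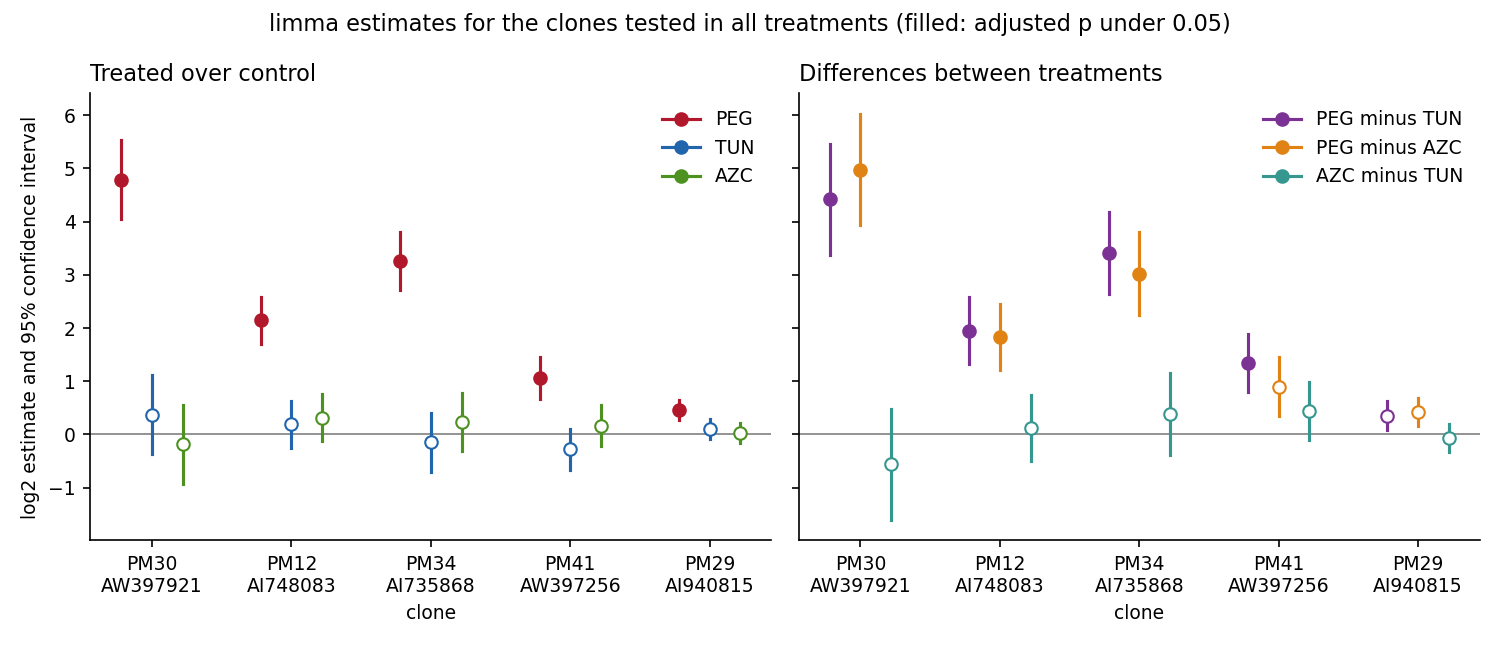
Estimates from limma with 95% confidence intervals (vertical axis, log2) for the 5 clones tested under all treatments (horizontal axis), as treated over control on the left and as differences between treatments on the right. Filled symbols have an adjusted p under 0.05. All 5 PEG estimates, from 0.45 to 4.79, have intervals above 0, and those of TUN and AZC include 0.

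Other genes of seed maturation and of the osmotic response were taken from lists of gene names. The 3 clones of the remaining seed maturation genes, PM37, PM39 and PM40, were not called under PEG or TUN. Under AZC, PM37 and PM40 were not called and PM39 was not tested. With 4.58% of all clones called higher under PEG, a count of 0 of 3 does not set these clones apart. PM39 was at 0.89 under PEG (standard error 0.26, adjusted p = 0.0657 from limma), with replicates at 1.45 and 0.34, and PM37 at 0.07 and PM40 at 0.19. All 3 were above background in the control channel of all 12 hybridizations.

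Of 10 clones on the osmotic response list, limma called 5 higher and 1 lower under PEG, 1 higher and 1 lower under TUN and 0 higher and 1 lower of the 9 tested under AZC. Of all clones tested, 7.02% were called lower under PEG, 2.75% under TUN and 5.12% under AZC, beside the shares called higher given above. The median log2 ratio of this list under PEG was 0.38. Those that rose under PEG were both clones of ALDH7B1, an aldehyde dehydrogenase, the bZIP transcription factors BZIP77 (1.13, standard error 0.14, adjusted p = 5.6e-04 from limma) and BZIP121 (0.82, standard error 0.17, adjusted p = 0.0133), and a clone of the ferritin H-1 (AW279016), an iron storage protein. This H-1 clone was at 1.30 under PEG (adjusted p = 0.0057) and also at 1.32 under TUN (adjusted p = 0.0077). The other H-1 clone, AW101901, was at −0.06 under PEG (adjusted p = 0.776) and −0.18 under TUN (adjusted p = 0.419). AW101901 was above background in 12 control channels and AW279016 in 10. The remaining bZIP clones of the list were not called under PEG and had estimates below 0. They were BZIP21 (−0.10, adjusted p = 0.751 from limma) and the BZIP126 clones AW277900 (−0.06, adjusted p = 0.792) and AI960828 (−0.42, adjusted p = 0.171). MIPS, inositol-3-phosphate synthase, fell in all treatments, with log2 ratios of −1.32 under PEG, −0.82 under TUN and −1.42 under AZC (adjusted p = 2.1e-04, 0.0053 and 1.1e-04).

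Seed storage proteins, which mark seed cells, were examined beside the seed maturation clones. Under PEG, 0 of 7 tested clones of this list were called higher, 1 was called lower and the list's median was −0.01. The lower one was a clone of the glycinin GY4 (AW508958, −0.60, adjusted p = 0.0472 from limma), with replicates at −0.22 and −0.98. The other GY4 clone, AW459971, was at 0.03 (adjusted p = 0.841). With 4.58% of all clones called higher under PEG, a count of 0 of 7 does not set this list apart. Under AZC, 1 of 8 was lower, a clone of the conglycinin CG-1 (AI941229, −0.62, adjusted p = 0.0254). The other CG-1 clone, AW508681, was at 0.15 under AZC (adjusted p = 0.747). Under TUN, 0 of 5 clones of the list were called (1 was lower with an unadjusted p below 0.05). Of its 8 spots, 6 were above background in all 12 control channels.

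The clones with the pattern most like that of the members were found by Pearson's correlation over the 6 values of each clone, 3 treatments by 2 replicates, with the mean profile of the 5 members that have all 6. Among 154 other named spots with all values, the highest were BZIP77 (r = 0.983), ALDH7B1 (AW598015, r = 0.975), the MADS-box factor MADS28 (r = 0.954), BZIP121 (r = 0.943) and CG-1 (AI941229, r = 0.920). The mean member profile had 2.05 and 2.63 in the PEG replicates and 0.04 to 0.13 in the other 4 values, so that such a correlation mostly reflects a contrast between PEG and the rest. MADS28 was not called under PEG (0.13, adjusted p = 0.223 from limma), nor was CG-1 (0.19, adjusted p = 0.457), whose TUN and AZC values were below 0.

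The PEG estimates were computed again under 26 other settings of the processing. Apart from the order of the files of PEG replicate 1, the estimate of PM30 ranged from 3.63 without background correction to 5.58 without PEG replicate 1. That of PM34 (AI735868) ranged from 1.96 to 3.78, that of PM12 from 1.19 to 2.56, that of PM41 from 0.72 to 1.40 and that of PM29 from 0.30 to 0.60. No estimate of these 5 clones fell to 0 or below in these settings.

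**Figure D4:**
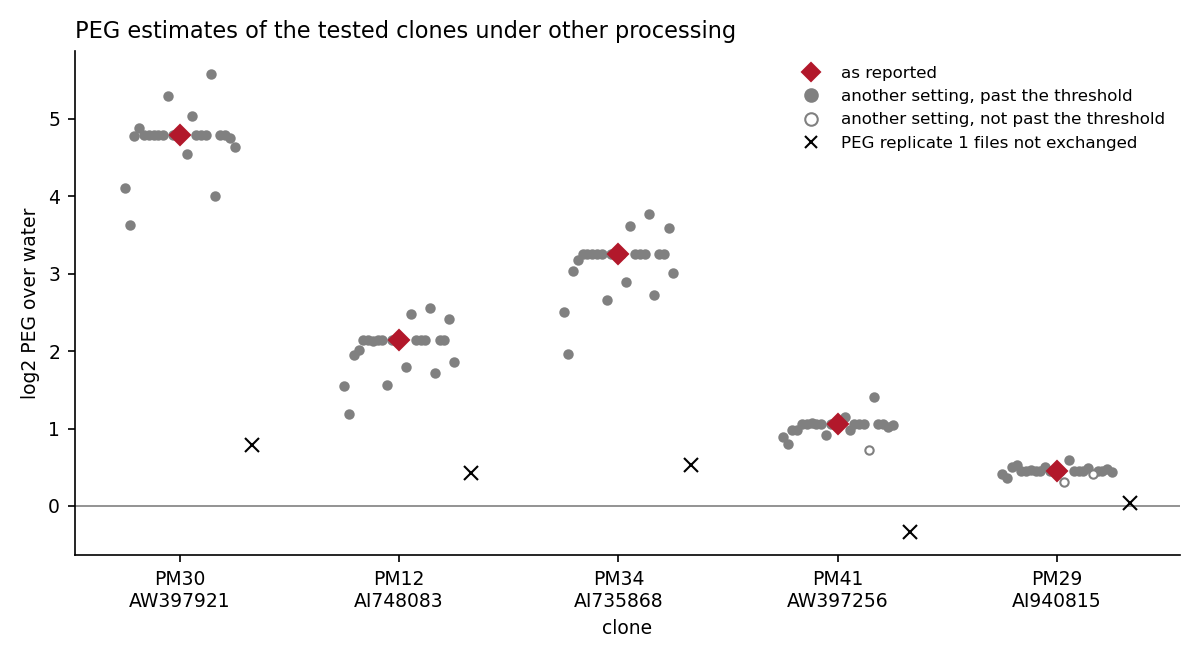
Log2 ratio of PEG over water (vertical axis) of the 5 tested clones (horizontal axis) as reported (diamond) and under other settings (circles). Circles are open where the adjusted p misses 0.05 or, for the test that the methods name, where the unadjusted p or the fold limit is missed. That test after Benjamini-Hochberg adjustment, which called none of them at the same estimates and only 2 clones of the whole array, is not drawn. Crosses are the values with the files of PEG replicate 1 not exchanged, which lie between −0.34 and 0.79.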

How the data were processed

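Soybean leaf RNA was compared on 12 2-colour cDNA arrays. Per the file headers, the deposited scanner files, written by ScanArray Express, hold the intensity of each spot (mean foreground, local background and its standard deviation in Cy3 and Cy5, arbitrary units), its percent of saturated pixels and a mark. The methods name QuantArray for this step. The meaning of the marks is not given in the sources used here. The authors' table holds log2 ratios, background-subtracted and LOWESS-normalized, whose direction was found from the values. It was used only as an alternative.

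The median local background was corrected by normexp (offset 50) and each array was normalized by global loess (span 0.3). Spots with marks 1 or 4 were left out, 9 of the 108 member measurements, 4 of them in PEG replicate 2. Log2 ratios were turned to treated over control and averaged over the dye-swap pair, both orientations required, to 2 values per treatment. A clone was tested if its foreground exceeded the local background by 2 standard deviations of the latter in no fewer than 3 of the 4 hybridizations of any of the 6 RNA groups (treated and control of each treatment). All clones were fitted by limma 3.58.1 (R 4.3.3) with 1 coefficient per treatment and an intensity trend (prior degrees of freedom 6.20), and p-values were adjusted by the Benjamini-Hochberg method over all clones tested, with a threshold of 0.05. The code was tested on simulated data. The number of arrays limits the precision, and with 2 replicates p-values lean on the spread shared by all clones.

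The members and lists were chosen with earlier results of these data known. Every member was named, whatever its value, and of the other clones, those on the lists that passed and the 5 most alike. PM37, PM39, PM40, the leaf markers, and further clones of the listed genes and of the bZIP factors on the lists were named beside them. The PM30 sequence comes from the study's primer table.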

Additional observations from a re-analysis of the deposited data

Results flagged for a closer look

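In 19 sets of 4 hybridizations of a member clone under a treatment, the highest or lowest value was flagged in 2. The flag sets its gap to the next value against the range of the 4. A rate by chance of about 1 in 20 holds for independent values, whereas each set has 2 biological replicates with swapped dyes. PM41 under AZC had its highest log2 ratio at 0.42, in replicate 1 with the treated RNA in Cy3 (gap over range 0.86). PM29 under TUN had its highest at 0.13, in replicate 2 with the treated RNA in Cy5 (gap over range 0.91). All 4 values of PM29 lay between 0.09 and 0.13, so that this gap is small in size.

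The response to PEG differed from that to TUN, by the contrast in limma, for PM30 by 4.42, for PM34 (AI735868) by 3.41, for PM12 by 1.95 and for PM41 by 1.34 on the log2 scale. It differed from that to AZC for PM30 by 4.98, for PM34 (AI735868) by 3.02 and for PM12 by 1.83.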

How the results depend on the processing

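With the files of PEG replicate 1 as listed, 0 of 5 member clones passed under PEG, for PEG minus TUN and for PEG minus AZC, and 0 under AZC, where PM9 kept its estimate (adjusted p = 0.260). PM41 then turned to −0.34 under PEG, −0.062 for PEG minus TUN and −0.51 for PEG minus AZC, and PM29 to −0.062 for PEG minus TUN. The methods' t-test on single hybridizations with their fold limits called 6 of 9 under PEG unadjusted, PM29 not among them. Of all clones tested, 2.62% were called higher in this way. After Benjamini-Hochberg adjustment it called 0 members under PEG and 0 under AZC. Under PEG only 2 clones of the whole array then passed, with 0% called higher, so that this 0 does not set the members apart. Leaving out a replicate gave 4 to 6 clones under PEG, 0 to 1 under AZC, 3 to 4 for PEG minus TUN and 2 to 4 for PEG minus AZC. With the replicate block, 5 of 5 clones passed under PEG, where 4.4% of all clones were called higher. This setting left 4 and 3 clones for the PEG differences and 0 under AZC, where PM9 could not be fitted. The differences between replicates correlated at −0.06 for PEG and TUN, −0.07 for PEG and AZC and 0.14 for TUN and AZC. Whether the replicate numbers pair samples across treatments cannot be told from these values.

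The PM9 call under AZC, and with it the count, fell to 0 without the intensity trend, in either dye orientation alone, when 1 orientation sufficed, and without the Adaptive Circle hybridization (adjusted p = 0.244), a setting added once the data had been seen. That last setting gave 7 of 7 under PEG, where 3.5% of all clones were called higher. PEG minus AZC rose to 5 of 5 by print-tip loess and by the authors' ratios and to 7 of 8 with 12 hybridizations and a random block. These counts were not set against the share of all clones in the same settings. No other setting, the mean local background (also added later) included, moved a member count by over 1.5 times. The share of all tested clones called higher under PEG, 4.58%, was 1.25% without PEG replicate 2 and 7.46% by median centring.

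Uncalled values changed sign as follows. With the treated RNA in Cy5 alone, PM34 was at −0.16 (AI940821) and −0.25 (AW568206) under TUN and, on AI735868, at −0.16 under AZC and −0.045 for AZC minus TUN, and PM29 at −0.0086 under AZC. With Cy3 alone, PM30 was at 0.16 under AZC and PM12 at −0.077 for AZC minus TUN. By median centring, PM34 was at −0.017 (AW568206) under TUN and −0.074 (AI735868) under AZC, and PM29 at 0.029 for AZC minus TUN. Leaving out a replicate moved PM30 from −0.057 (without TUN replicate 1) to 0.80 and PM34 (AI735868) from −0.39 to 0.081 under TUN, and PM30 from −0.41 to 0.032 (without AZC replicate 2) under AZC. The cause of these changes was not tested. Signal over background limits PEG replicate 2 most, where 7 of 18 control measurements were not above background.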
